A study of Mus musculus with 6 samples.

Results

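The messenger RNAs of 10 immediate early genes were followed in mouse embryonic stem cells exposed for 6 h to SC1: Egr1, Fos, Fosb, Fosl2, Jun, Junb, Jund, Ier2, Ier3 and Ier5. The genes were chosen by name, and their probes were found through the transcript accession that the array files give for each probe. All 10 were on the array and all 10 were well above background on each of the 6 arrays, so none entered through a filter on 1 group. They stand among 25421 genes and transcripts that could be tested.

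Cells of the SC1 group received 1 µM SC1 for 6 h, and cells of the DMSO group received the solvent for 6 h. SC1, a compound also called pluripotin, has been reported to block ERK1 and RasGAP. Both groups were J1 cells, 1 line of strain 129S4/SvJae from the inner cell mass, kept without feeders on gelatin in a serum replacement medium with 1000 U/mL LIF, the cytokine that sustains self-renewal through STAT3. Total RNA was measured on 6 Agilent arrays of 1 colour (Cy3), 3 for SC1 and 3 for DMSO. Whether the replicates came from separate cultures is not said in the labels, and the p-values therefore reflect only the spread among these samples, possibly a technical one.

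Immediate early genes are transcribed within minutes of a signal, without new protein synthesis, and their RNAs usually decay quickly. EGR1 is a zinc finger transcription factor, FOS and JUN proteins pair as the dimeric factor AP-1, and the IER genes encode small regulators of growth, survival and stress. ERK signalling acts on several of these genes through ternary complex factors bound beside SRF, while the stress kinase JNK phosphorylates JUN, which can act on its own promoter.

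Of the 10 genes, 3 rose with SC1 (Jun, Fosl2 and Jund), 4 fell (Egr1, Ier2, Ier3 and Fos) and 3 did not pass (Junb, Fosb and Ier5), at a Benjamini-Hochberg adjusted p under 0.05 from limma over all genes tested. Among all genes 38.3% passed, 18.2% higher and 20.1% lower, so calls in both directions were common on these arrays. The median log2 fold change was 0.047 over the 10 genes and -0.0045 over all genes. The median size of the change, without its sign, was 0.61 on the log2 scale for the 10 genes and 0.17 for all genes. The 10 genes were chosen with earlier results of these data known, so this contrast is a description and no test. In total RNA of a culture, fewer cells with a transcript and less of it per cell cannot be told apart.

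Upstream sequences are shown for 2 genes that rose, Jun and Fosl2, and 2 that fell, Fos and Ier3, because the families moved in both directions and a reader may compare the bases before their starts. RefSeq promoters (build GRCm38.p6) were matched for 8 of the 10 genes, all but Egr1 and Ier2. Each line is the 250 bases before the annotated start, 5′ to 3′ on the gene's strand. Jun lies at chr4:95052223-95052472 on the minus strand, Fosl2 at chr5:32136222-32136471, Fos at chr12:85473640-85473889 and Ier3 at chr17:35821463-35821712, these 3 on the plus strand. Capitals mark matches, on either strand, to the motifs described after them.
Jun: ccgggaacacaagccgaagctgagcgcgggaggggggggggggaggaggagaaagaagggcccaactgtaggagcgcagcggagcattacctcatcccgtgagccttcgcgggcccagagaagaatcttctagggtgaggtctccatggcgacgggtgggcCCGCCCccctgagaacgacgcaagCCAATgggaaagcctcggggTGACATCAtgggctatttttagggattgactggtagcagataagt
Fosl2: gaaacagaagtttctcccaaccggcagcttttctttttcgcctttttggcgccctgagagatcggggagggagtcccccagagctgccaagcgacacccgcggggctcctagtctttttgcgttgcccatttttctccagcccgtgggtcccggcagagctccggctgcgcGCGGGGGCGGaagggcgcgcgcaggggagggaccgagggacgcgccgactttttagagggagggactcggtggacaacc
Fos: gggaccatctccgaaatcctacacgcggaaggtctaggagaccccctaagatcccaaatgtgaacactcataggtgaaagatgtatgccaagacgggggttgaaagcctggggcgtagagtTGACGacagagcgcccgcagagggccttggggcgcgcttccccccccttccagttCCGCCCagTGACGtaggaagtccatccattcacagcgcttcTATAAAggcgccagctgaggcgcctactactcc
Ier3: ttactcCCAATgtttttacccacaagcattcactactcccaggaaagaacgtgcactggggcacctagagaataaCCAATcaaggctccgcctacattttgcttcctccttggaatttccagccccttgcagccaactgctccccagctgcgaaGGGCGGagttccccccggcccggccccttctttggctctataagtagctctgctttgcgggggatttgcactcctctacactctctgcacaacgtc

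The motifs searched on both strands were the cAMP response element TGACGTCA and its half-site TGACG, which the full element contains, the AP-1 site TGANTCA and its longer variant TGACATCA, the EGR zinc finger site GCGNGGGCG, the ETS site CCGGAA and the TATA box, spelled TATAAA. The remaining motifs were the CCAAT box, the GC box GGGCGG, which can overlap the EGR site, and the CArG box. The half-site was added after the sequences had been seen. Jun held TGACATCA beginning 45 bases before its start, a match present in 2.93% of the 32851 promoters of the same length, together with CCAAT at 65 bases, found in 33.8%, and a GC box at 89 bases. Fosl2 held an EGR site at 79 bases, found in 4.7% of promoters, overlapping a GC box at 75 bases, found in 32.7%. Fos held TGACG at 129 and at 66 bases, found in 17.8%, a GC box at 74 bases and TATAAA at 33 bases, found in 12.4%. Ier3 held CCAAT at 244 and 175 bases and a GC box at 96 bases.

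Of the sequences not printed, Fosb held an EGR site at 50 bases, TGACG at 60 bases and 3 GC boxes. Junb held TGACG at 106 bases and CCAAT at 36 bases, and Ier5 held 2 CCAAT and 2 GC boxes. Jund held none of the motifs. No window held TGACGTCA, found in 1.55% of promoters, TGANTCA, found in 6.75%, CCGGAA, found in 12%, or the CArG box, found in 1.47%. A match describes these letters only, and an absent motif says only that the letters are not in this window.

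Array-wide signal differed between the groups before scaling. Its 75th percentile, taken over probes, was 494.2, 459.2 and 443.5 on SC1 arrays 1, 2 and 3, against 539.5, 533.1 and 535.3 on DMSO arrays 1, 2 and 3. Signals below are the processed intensities as deposited, while fold changes are differences of log2 signal after each array's own 75th percentile was subtracted, so a fold change is shifted upward from the plain ratio of signals. Embryonic stem cell markers were present as labelled: all 12 of the list were well above background on 6 of 6 arrays, with summed signals of 337188 to 358586 on SC1 arrays and 386657 to 398377 on DMSO arrays. Of 12 fibroblast markers 9 were above background on all 6 arrays and Lum, Postn and Twist2 on none, with sums of 1551 to 1702 on SC1 arrays and 2249 to 2299 on DMSO arrays. All 6 primitive endoderm markers were above background, with sums of 433 to 488 with SC1 and 451 to 495 with DMSO. Of 6 trophoblast markers 3 were above background on all arrays and Elf5 and Hand1 on none, with sums of 420 to 450 with SC1 and 581 to 634 with DMSO. These sums are of signals before scaling, and those of the stem cell, fibroblast and trophoblast lists were all lower on SC1 arrays without overlap. After scaling the 9 tested fibroblast markers had a median log2 fold change of 0.25, with 4 higher and 2 lower, and the 4 tested trophoblast markers had -0.12, with 1 higher and 2 lower. Of these 2, Cdx2 was above background on 3 DMSO arrays and on no SC1 array, so it entered through the DMSO group alone. For the 12 stem cell markers the median log2 fold change was 0.051, with 3 higher and 5 lower. For the 6 primitive endoderm markers it was 0.085, with 3 higher and 0 lower. The part of any of these lists in the results was not tested.

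**Figure D1:**
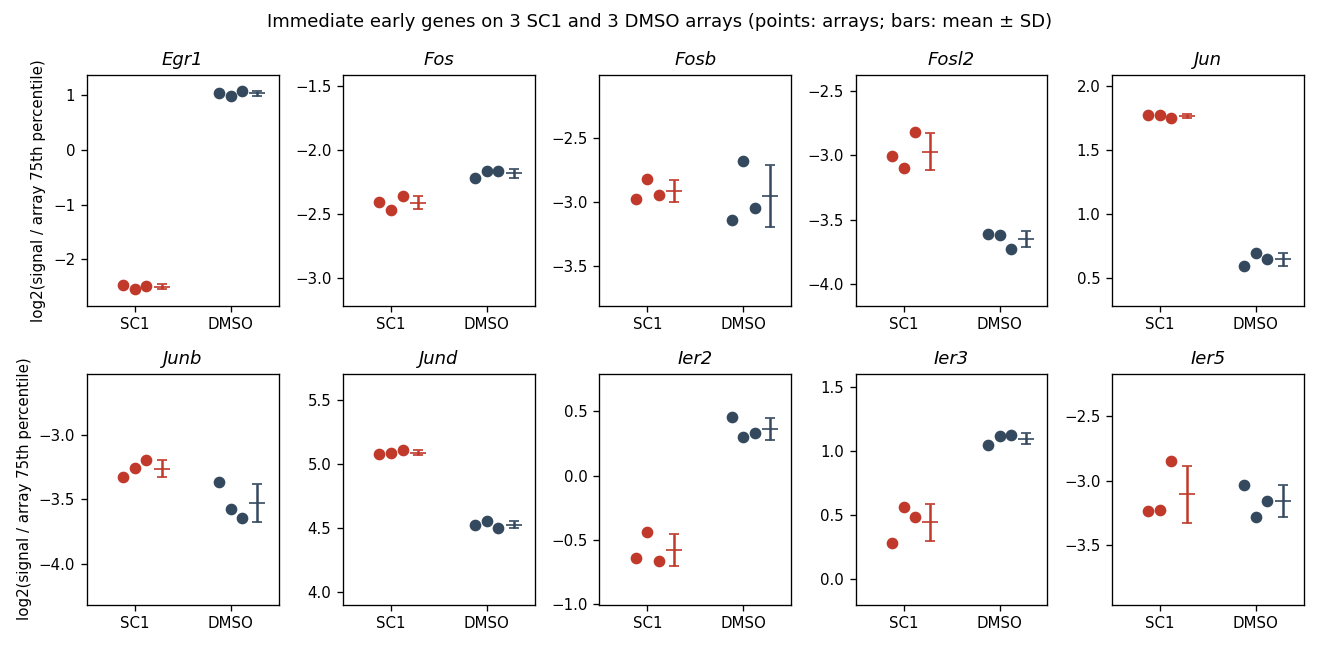
Log2 signal relative to each array's 75th percentile for the 10 genes, with 1 point per array, SC1 on the left and DMSO on the right of each panel, and bars for the mean ± SD (n = 3 each). Egr1, Fos, Ier2 and Ier3 lie lower and Jun, Fosl2, Jund and Junb higher on all SC1 arrays, while Fosb and Ier5 overlap; axis ranges differ between panels.

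Egr1, a zinc finger factor induced by growth factors through ERK, fell most of the 10. Its signal was 89.5, 78.4 and 79.0 on SC1 arrays 1, 2 and 3, against 1106, 1058 and 1125 on DMSO arrays 1, 2 and 3. All SC1 arrays lay far below all DMSO arrays, with means of 82.3 ± 6.26 and 1096 ± 34.4 (SD, n = 3 each). Its log2 fold change was -3.53 (SE 0.0455, 95% interval -3.64 to -3.42), a decrease of 11.6-fold (limma, adjusted p = 2.45e-06). By the size of its change Egr1 stood at rank 12 of all genes tested. Another background treatment, normexp, models local background and here added an offset of 50 to every signal, which compresses dim signals. All normexp values below include this offset. With normexp the log2 fold change of Egr1 was -2.84 after quantile and -2.81 after 75th percentile scaling, and the call was kept. Even on the SC1 arrays its signal was at least 8.19 times the lowest signal called well above background.

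Of the FOS genes, Fosl2 rose, Fos fell by a small amount and Fosb did not pass. FOS proteins cannot pair with each other and bind DNA as partners of JUN proteins. Fosl2, which encodes FRA2, had signals of 61.8, 53.7 and 63.0 on SC1 arrays 1, 2 and 3, against 44.0, 43.4 and 40.5 on DMSO arrays 1, 2 and 3. The SC1 arrays were all higher, with means of 59.5 ± 5.06 and 42.6 ± 1.90 (SD, n = 3 each). This gave a log2 fold change of 0.68 (SE 0.0818, 95% interval 0.48 to 0.88), a 1.60-fold increase (limma, adjusted p = 0.00153). The size differed with normexp and its offset of 50, which is close to the Fosl2 signals themselves. The log2 fold change was then 0.27 and 0.38 after quantile or 75th percentile scaling, still called. Background model and offset were not varied separately. Blocking on the array's column on the slide gave an adjusted p of 0.0549 in limma, and the call was lost. A second Fosl2 probe was above background on 1 DMSO array and on no SC1 array, so it gave no second measurement.

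Fos, the founding member of the family, was measured by 10 spots of 1 probe on every array. Its signal, averaged over spots on the log2 scale, was 93.1, 83.2 and 86.3 on SC1 arrays 1, 2 and 3, against 116, 119 and 120 on DMSO arrays 1, 2 and 3. The SC1 arrays were all lower, with means of 87.5 ± 5.06 and 118 ± 2.08 (SD, n = 3 each). After scaling the log2 fold change was -0.23 (SE 0.046, 95% interval -0.34 to -0.12), a decrease of 1.17-fold (limma, adjusted p = 0.0107). This is the smallest change called among the 10 genes, and it did not pass at an adjusted p under 0.01. It also lost its call under 4 other alternatives: scaling to 8 spike-in control probes (adjusted p = 0.387), normexp with 75th percentile scaling (-0.096, adjusted p = 0.129), and the row or the column on the slide as a block (adjusted p = 0.0876 and 0.117).

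The repeated Fos spots show the technical spread within an array. The spots ranged from 85.7 to 102, 73.5 to 94.4 and 80.5 to 97.7 on SC1 arrays 1, 2 and 3, and from 101 to 124, 109 to 131 and 108 to 137 on DMSO arrays 1, 2 and 3. The coefficient of variation between spots was 5.97%, 6.76% and 6.43% on the SC1 arrays and 6.00%, 6.03% and 7.09% on the DMSO arrays. Before scaling, the spot ranges of the groups met only at the edges of SC1 array 1 and DMSO array 1. After scaling, on the values behind the fold change, they overlapped: log2 signals relative to the 75th percentile ran from -2.53 to -2.28, -2.64 to -2.28 and -2.46 to -2.18 on SC1 arrays 1, 2 and 3, and from -2.42 to -2.12, -2.29 to -2.03 and -2.31 to -1.97 on DMSO arrays 1, 2 and 3. On DMSO array 2 a spot of signal 234 was marked as an outlier by the scanner software and left out, leaving 9. Spots of 1 array share its RNA and are not replicates of the treatment.

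**Figure D2:**
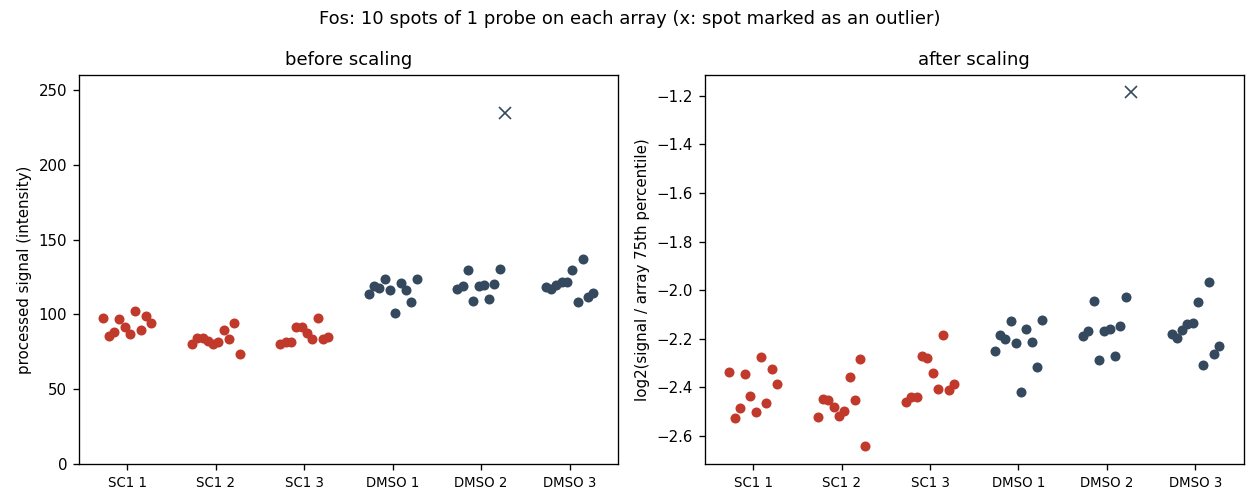
Each of the 10 Fos spots on every array, as processed signal in the left panel and as log2 signal relative to the array's 75th percentile in the right panel, SC1 arrays before DMSO arrays, with a cross for the spot left out as an outlier. Before scaling the SC1 spots lie between 73.5 and 102 and the DMSO spots used between 101 and 137, while after scaling they overlap, at -2.64 to -2.18 for SC1 and -2.42 to -1.97 for DMSO.

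Fosb, a relative of Fos, had signals of 62.6, 64.9 and 57.4 on SC1 arrays 1, 2 and 3, against 61.2, 83.0 and 64.7 on DMSO arrays 1, 2 and 3. The groups overlapped, and DMSO array 2 lay above all others. The log2 fold change was 0.040 (SE 0.126), with a 95% interval of -0.27 to 0.35 (limma, adjusted p = 0.835), and its sign turned when 1 array was left out or the scaling was changed. The interval leaves room for a change about as large as that of Fos in either direction.

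All 3 JUN genes had positive log2 fold changes, and Jun and Jund passed the test. JUN proteins can pair with each other as well as with FOS and ATF partners. Jun, which encodes c-Jun and is a target of JNK signalling, had signals of 1693, 1570 and 1492 on SC1 arrays 1, 2 and 3, against 816, 864 and 840 on DMSO arrays 1, 2 and 3. Every SC1 array was well above every DMSO array, with means of 1585 ± 102 and 840 ± 23.7 (SD, n = 3 each). The log2 fold change was 1.12 (SE 0.043, 95% interval 1.01 to 1.22), a 2.17-fold increase (limma, adjusted p = 2.84e-05). It is the largest increase among the 10 genes.

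Jund, which is less inducible and often present in resting cells, had signals of 16650, 15539 and 15270 on SC1 arrays 1, 2 and 3, against 12434, 12502 and 12110 on DMSO arrays 1, 2 and 3. The SC1 arrays were all higher, with means of 15820 ± 732 and 12348 ± 210 (SD, n = 3 each). Jund thus had a log2 fold change of 0.56 (SE 0.0384, 95% interval 0.47 to 0.65), a 1.48-fold increase (limma, adjusted p = 0.000188). Junb, which can restrain c-Jun, had signals of 49.2, 48.0 and 48.4 on SC1 arrays 1, 2 and 3, against 52.5, 44.8 and 42.8 on DMSO arrays 1, 2 and 3. These signals overlapped, while after scaling the SC1 arrays lay above the DMSO arrays. Its log2 fold change was 0.27 (SE 0.0839, 95% interval 0.060 to 0.47), and it did not pass (limma, adjusted p = 0.0508). Under 4 alternatives it passed, among them leaving out DMSO array 1, where the log2 fold change was 0.35 (adjusted p = 0.0133).

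Of the IER genes, Ier2 and Ier3 fell and Ier5 did not pass. Ier2, which encodes a nuclear growth response protein, had signals of 317, 338 and 279 on SC1 arrays 1, 2 and 3, against 740, 657 and 673 on DMSO arrays 1, 2 and 3. All SC1 arrays were lower, with means of 312 ± 29.9 and 690 ± 44.4 (SD, n = 3 each). The log2 fold change was -0.95 (SE 0.0787, 95% interval -1.14 to -0.75), a decrease of 1.93-fold (limma, adjusted p = 0.000372).

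Ier3, also known as IEX-1, encodes a regulator of survival that is itself a substrate of ERK. Its signal was 600.2, 680 and 620 on SC1 arrays 1, 2 and 3, against 1113, 1157 and 1168 on DMSO arrays 1, 2 and 3. All SC1 arrays were lower, with means of 633 ± 41.6 and 1146 ± 29.0 (SD, n = 3 each). For Ier3 the log2 fold change was -0.65 (SE 0.0807, 95% interval -0.85 to -0.46), a decrease of 1.57-fold (limma, adjusted p = 0.00173).

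Ier5, a stress-inducible gene linked to heat shock factor, had signals of 52.4, 49.0 and 61.5 on SC1 arrays 1, 2 and 3, against 65.9, 54.7 and 59.9 on DMSO arrays 1, 2 and 3. The groups overlapped. The log2 fold change was 0.054 (SE 0.125, 95% interval -0.25 to 0.36; limma, adjusted p = 0.772), and a second probe was not well above background on any array. After scaling, SC1 and DMSO arrays did not overlap for 8 of the 10 genes, which compares with 52.1% of all genes tested.

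**Figure D3:**
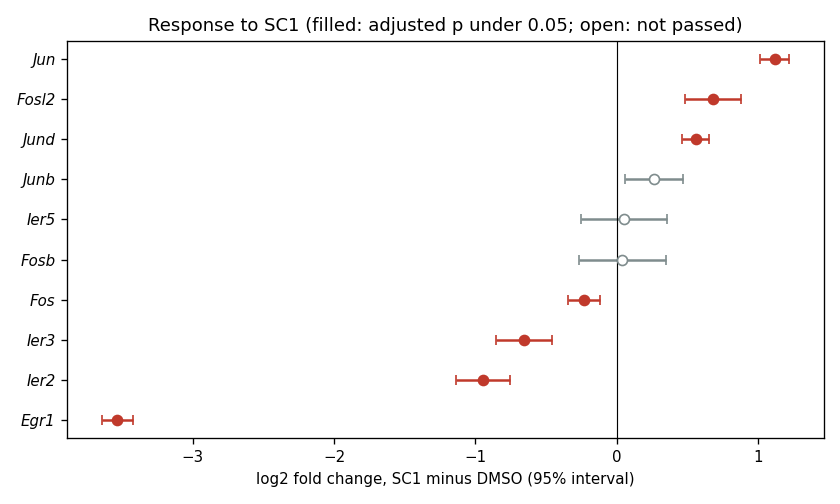
Log2 fold change of each gene, SC1 minus DMSO, with its 95% interval from limma, filled where the adjusted p was under 0.05. Values run from -3.53 for Egr1 to 1.12 for Jun, and the intervals of Fosb and Ier5 cross 0.

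Because each gene has its own probe, signals of different genes were not ranked against each other, and responses were compared in place of levels. In 11 pairs of related genes the difference in log2 fold change was tested by an exact two-sided permutation test over the 6 arrays. With 3 arrays against 3 the smallest p is 0.1, so no pair could pass the threshold, and the adjusted p over the 11 pairs was 0.11 for each pair but Fos and Fosb. Within the JUN family the response of Jun exceeded that of Junb by 0.85 and that of Jund by 0.56, and Junb minus Jund was -0.30. Within the FOS family Fos minus Fosl2 was -0.91 and Fosb minus Fosl2 was -0.64, while Fos minus Fosb was -0.27 (exact permutation p = 0.3). Among the IER genes Ier2 minus Ier5 was -0.999, Ier3 minus Ier5 was -0.71 and Ier2 minus Ier3 was -0.29. Egr1 differed from Fos by -3.30 and from Ier2 by -2.59. In the 10 pairs at the smallest p the per-array differences of SC1 and DMSO arrays did not overlap, which this p itself means.

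The genes whose values over the 6 arrays were most like those of Egr1 by Pearson correlation, among 15475 genes with a symbol, were Etv1, an ETS factor gene, Meg3, an imprinted noncoding RNA, and Enpp3, with log2 fold changes of -3.33, -1.67 and -2.18. Those most like Jun were Hhip, which encodes a Hedgehog decoy receptor, Aars and Grin2c, with log2 fold changes of 3.75, 0.44 and 2.69. All 6 correlations rounded to 1.00. A correlation over 6 arrays in 2 groups mainly reflects the difference between the groups: 611 genes reached a correlation over 0.99 with Egr1 and 484 with Jun.

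All arrays lay on 1 slide, and position on it was not balanced between the groups. The first row held SC1 array 1 and all 3 DMSO arrays, and the second row held SC1 arrays 2 and 3. Within the first row the difference between SC1 array 1 and the mean of the DMSO arrays was -3.50 for Egr1, 1.13 for Jun, 0.55 for Jund, 0.65 for Fosl2, -1.002 for Ier2, -0.82 for Ier3 and -0.23 for Fos. Within the first and the second column, which each held 1 array of either group, it was -3.59 and -3.48 for Egr1, 1.18 and 1.05 for Jun, 0.55 in both for Jund, and 0.52 and 0.80 for Fosl2. It was -0.90 and -0.97 for Ier2, -0.48 and -0.64 for Ier3, and -0.24 and -0.20 for Fos. The 7 genes that passed kept their direction in these comparisons, which follows from the lack of overlap between their SC1 and DMSO arrays. Within each of these columns the SC1 array lay in the second row and the DMSO array in the first, so column comparisons also differ by row. Junb had 0.20 in the row and 0.10 and 0.38 in the columns, whereas Fosb (-0.023, 0.32 and -0.27) and Ier5 (-0.079, -0.19 and 0.43) changed sign.

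Relatives of the EGR and AP-1 genes moved in both directions. Among 4 tested EGR relatives and corepressors 2 rose, 1 fell and 1 did not pass, and the median log2 fold change was 0.13. The share called was 75%, against 38.3% of all genes. Wt1, a zinc finger factor that binds EGR-like sites, had signals of 229, 246 and 222 on SC1 arrays 1, 2 and 3, against 2279, 2015 and 1951 on DMSO arrays 1, 2 and 3. That is a 7.76-fold decrease (limma, adjusted p = 1.11e-05), with no overlap. Nab2, a corepressor of EGR1 and itself an EGR target, rose 1.62-fold (limma, adjusted p = 0.000137). Egr4 rose by 0.29 on the log2 scale (limma, adjusted p = 0.0345), a call lost under 10 of 21 alternatives. Egr2 and Egr3 were not well above background on any array.

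Of 11 tested AP-1, ATF and small MAF partners, 4 rose, 1 fell and 6 did not pass, with a median of 0.18. Calls thus covered 45.5% of them, against 38.3% of all genes. Atf3, a stress-induced partner of JUN, rose 2.06-fold, with signals of 332, 281 and 304 on SC1 arrays 1, 2 and 3, against 172, 168 and 171 on DMSO arrays 1, 2 and 3 (limma, adjusted p = 7.64e-05). Jdp2, which encodes a dimerization partner that represses AP-1, rose 1.94-fold, and Batf, another JUN partner, rose 1.62-fold. Batf had a log2 fold change of 0.70, and 0.34 and 0.43 with normexp. Mafg rose and Mafk fell, with log2 fold changes of 0.18 and -0.37, and both lost their calls with spike-in scaling. Mafg kept its call under 13 and Mafk under 19 of 21 alternatives. Fosl1, which encodes FRA1, was above background on 2 DMSO arrays and on no SC1 array and was not tested. The IER relatives Ier5l and Ier3ip1 did not pass.

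Other immediate early genes fell more often than they rose. Among 38 tested, 20 fell, 8 rose and 10 did not pass, 73.7% called against 38.3% of all genes, with a median of -0.20. Myc, a growth-promoting factor, fell 23.4-fold, with signals of 44.4, 42.7 and 39.5 on SC1 arrays 1, 2 and 3, against 1238, 1085 and 1094 on DMSO arrays 1, 2 and 3. The log2 fold change of Myc was -4.55, and -3.39 and -3.35 with normexp and quantile or 75th percentile scaling. Id3, an inhibitor of bHLH factors, fell 10.2-fold, Trib1, a pseudokinase gene, 3.59-fold and Tiparp, an ADP-ribosyltransferase gene, 2.01-fold. For Id3 the log2 fold change of -3.34 became -2.75 and -2.73 with normexp. Gadd45g, a growth arrest and stress gene, rose 3.22-fold, with 18497, 17370 and 16487 on SC1 arrays 1, 2 and 3, against 6200, 6252 and 6285 on DMSO arrays 1, 2 and 3. Nr4a3 and Ptgs2 were not well above background on any array.

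SRF and its partners, the ternary complex and MRTF factors, act on immediate early promoters. A list that joins their genes with Creb1, Crem, Atf1, Mef2a and Mef2d was called about as often as genes at large. Of the 11 genes of this mixed list, 1 rose, 3 fell and 7 did not pass, for a median of 0.082. The share called was 36.4%, against 38.3% of all genes. Elk3, a ternary complex factor, fell: its brightest probe had a log2 fold change of -0.74, and another had -0.19. Crem and Srf fell, with log2 fold changes of -0.31 and -0.20 on their brightest probes, and both lost their calls with spike-in scaling. The 3 Crem probes ran from -1.02 to -0.080, so the size of its change is not settled. Srf kept its call under 11 of 21 alternatives. Mrtfb rose by 0.18 on its brightest probe, but another of its probes had -0.85, and the mean of its probes was -0.32 (limma, adjusted p = 0.00795), so its direction is not settled. The 15 genes of JNK and p38 signalling, phosphatases included, had a median of -0.086, and 3 of them rose, 6 fell and 6 did not pass, 60% called. Dusp8, which encodes a phosphatase that acts on JNK and p38, rose 5.36-fold on its brightest probe, with a log2 fold change of 2.42, and by 1.21 on another. With normexp the brightest probe gave 1.10 after quantile and 1.21 after 75th percentile scaling. Map2k6, a kinase gene upstream of p38, rose 2.03-fold, and Mapk12, Mapk8ip3 and Mapk13 fell, with log2 fold changes of -0.82, -0.70 and -0.41. Mapk13 lost its call with spike-in scaling (adjusted p = 0.0695) and with the row (0.0566) or column (0.063) on the slide as a block.

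The feedback genes of ERK, listed together with the ETS factor genes Etv4 and Etv5, were measured for comparison. All 10 genes of this list fell, 100% called against 38.3% of all genes, with a median of -1.68. Dusp5, which is on this list, was also counted among the other immediate early genes. So were Srf of the SRF list, Zfp36 of the AU-rich messenger RNA list below and Klf4 of the stem cell markers. Dusp6, a phosphatase gene of ERK, fell 31.7-fold, Dusp4 13.7-fold, Spred1 5.34-fold and Spry2 3.59-fold. Dusp4 was dim with SC1, and its log2 fold change was -3.78 as reported, against -1.82 and -1.72 with normexp and quantile or 75th percentile scaling. Spry4 was not well above background on any SC1 array and fell at least 25.0-fold, a bound set against the higher of its own signal and the lowest signal called above background on each SC1 array. With the same normexp settings Spry4 had log2 fold changes of -2.47 and -2.36, smaller than this bound. Of 12 regulators of AU-rich messenger RNA, a class that includes many immediate early transcripts, 5 fell and 7 did not pass, and the median was -0.10. The share called, 41.7%, was near that of all genes. Zfp36l1 and Zfp36l2, which encode proteins that hasten decay of such RNAs, fell 2.72-fold and 1.59-fold. Elavl1, Parn and Tial1 fell, with log2 fold changes of -0.34, -0.29 and -0.15, and each lost its call with spike-in scaling. A second Tial1 probe had 0.16, in the opposite direction, and Tial1 kept its call under 6 of 21 alternatives.

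**Figure D4:**
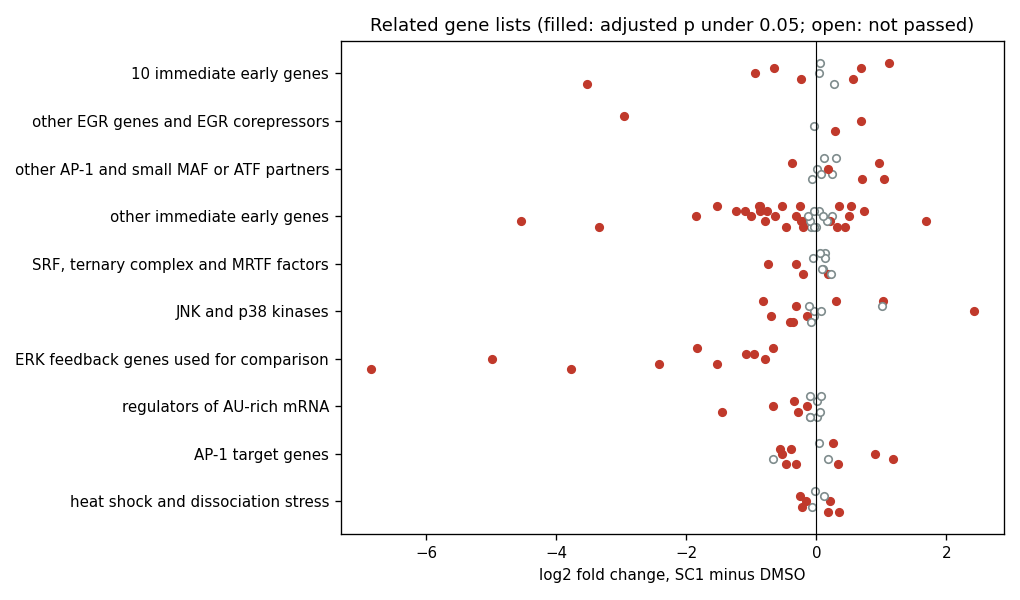
Log2 fold change, SC1 minus DMSO, of the 10 genes and of the tested genes of 9 related lists, 1 point per gene, filled where the adjusted p was under 0.05. The ERK feedback genes all lie below 0 (Spry4, far left, is drawn at its fitted value, which is no bound), while the 10 immediate early genes lie on both sides.

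Known AP-1 targets were mixed as well. Of 18 on the list 12 could be tested, and 4 rose, 5 fell and 3 did not pass, with a median of -0.14. The share called was 75%, against 38.3% of all genes. Fosl1, Plau, Il6, Mmp3, Mmp13 and Lif were not well above background on every array of either group and were not tested. Dcn, a matrix proteoglycan gene that also stands on the fibroblast marker list, rose 2.26-fold, and Spp1, which encodes osteopontin, rose 1.87-fold. Dcn was dim, and its log2 fold change of 1.18 became 0.33 and 0.45 with normexp and quantile or 75th percentile scaling. Ccnd1, the cyclin D1 gene, fell 1.46-fold, and Tgfb1 fell, with a log2 fold change of -0.46 that was not called with normexp and 75th percentile scaling. Mmp9 fell (limma, adjusted p = 0.00438) but was above background on 2 of 3 SC1 arrays, so no fold is given. Among 9 heat shock and dissociation stress genes, which move when cells are handled roughly, 3 rose, 3 fell and 3 did not pass, 66.7% called, with a median of -0.021. Hspa1a and Dnajb1 rose by 0.35 and 0.21 on the log2 scale, and Bag3, Hsph1 and Dnaja1 fell, with log2 fold changes of -0.25, -0.22 and -0.15. With spike-in scaling each of these 5 lost its call. Of 21 alternatives, Hspa1a and Dnajb1 each kept their calls under 18, Hsph1 under 15 and Bag3 under 12. A second Dnaja1 probe had 0.34, in the opposite direction, and Dnaja1 kept its call under 6 of 21 alternatives.

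**Figure D5:**
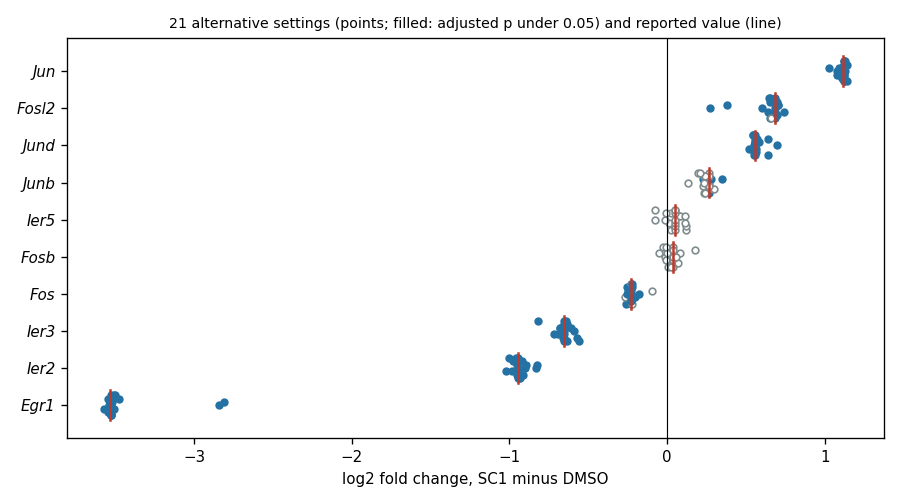
Log2 fold change of each gene, SC1 minus DMSO, under 21 alternative settings (points, filled where the adjusted p was under 0.05) beside the reported value (line). Egr1 ranged from -3.57 to -2.81 and Jun from 1.03 to 1.14, while the points of Fosb and Ier5 lie on both sides of 0.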

How the data were processed

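Single-colour arrays of 3 SC1 and 3 DMSO samples were analysed. Spot quantification used Agilent Feature Extraction 10.7, per the submitters' processing notes. Per the file headers, the deposited files give for each spot an intensity corrected for background and spatial trend, raw median intensities of spot and local background, and flags. A matrix of log2 values was deposited as well, whose method is not given in the sources used here. Its values differed from quantile-normalized log2 signals by a median of 0.040, and its array medians were 5.18 or 5.19. Scale is thus log2 and values are not centred.

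Of 62976 spots per array, 59305 were not controls. Between 137 and 201 outlier spots per array were left out, and 0 spots were saturated. Log2 signals were averaged per probe (55681 probes), and each array's 75th percentile was subtracted. A probe had to be well above background in every array of 1 group or both (35288 probes), and the brightest probe stood for each of 25421 genes or transcripts. Symbols came from a RefSeq gene table by accession, and the other transcripts kept the accession of the file. The fit of SC1 minus DMSO used limma 3.58.1 under R 4.3.3 (lmFit, eBayes, two-sided, Benjamini-Hochberg, threshold 0.05), without a block. Same-numbered SC1 and DMSO arrays deviated from their group means with correlations of -0.013, -0.036 and -0.015. The labels do not say whether a number marks a shared culture, and with so few arrays these correlations cannot settle it. The number of arrays limits the precision.

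The 10 genes and all gene lists were chosen with earlier results of these data known. Named genes were the 10, up to 5 genes per related list (those that passed without overlap between groups, by smallest p) and the 3 genes most correlated with Egr1 and with the gene that rose most. Lists are described by counts and medians only. Scripts were tested on simulated data. Alternatives covered scaling, background (normexp, offset 50, on the median signal), filters, probe choice, variance model, blocks, the deposited matrix and leaving out each array. Plots were made in Python 3.11.15 using matplotlib 3.10.9.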

Additional observations from a re-analysis of the deposited data

How the results depend on the processing

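Egr1, Jun, Jund, Ier2 and Ier3 kept their direction and their call under all 21 alternatives run for single genes, with log2 fold changes of -3.57 to -2.81, 1.03 to 1.14, 0.52 to 0.70, -1.02 to -0.83 and -0.82 to -0.56. Of 9735 genes called, the count was 4402 with spike-in scaling, 5525 and 3279 with the row or column on the slide as a block and 5780 at an adjusted p under 0.01. With normexp and 75th percentile scaling 7028 genes rose and 5029 fell (58.3% higher), against 4624 and 5111 (47.5% higher) in the reported fit. Fos did not pass at an adjusted p under 0.01, with spike-in scaling (-0.27), normexp and 75th percentile scaling (-0.096), or the row (-0.23) or column block (-0.22), nor Fosl2 with the column block (0.66). Junb passed with normexp and 75th percentile scaling (0.23, adjusted p = 0.00762), the filter on all 6 arrays (0.27, adjusted p = 0.0438) and array weights (0.28, adjusted p = 0.0381), and ran from 0.21 to 0.35 when 1 array was left out. Fosb turned negative with spike-in scaling (-0.000238), normexp and quantile normalization (-0.010) and the row block (-0.023), and ran from -0.052 to 0.18 with 1 array left out. Ier5 turned negative with normexp and quantile normalization (-0.015) and the row block (-0.079), and ran from -0.074 to 0.12 with 1 array left out. Fos ran from -0.26 to -0.20 and Fosl2 from 0.61 to 0.75 with 1 array left out. Mmp9 (0.046) and the trophoblast marker Cdx2 (0.019) turned positive with normexp and 75th percentile scaling. With the mean of a gene's probes Mrtfb turned to -0.32, Tial1 to 0.0081 and Dnaja1 to 0.094. The cause of these moves was not tested. Of 42 named genes of the related lists 25 kept their call under every alternative. Of the other 17 all lost it with the column block and 15 with spike-in scaling. The column block compares the groups within the first and second columns only, and the row block within the first row only, so both rest on fewer arrays. With the replicate block 7895 genes were called, and no call among the 10 genes changed (Egr1 -3.53, adjusted p = 0.00111; Fos -0.23, adjusted p = 0.0396). Fosb, Junb, Ier5 and Fosl2 were dim, at 6.64, 4.86, 5.12 and 4.59 times the lowest signal called above background on their dimmest array.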
